A study of Mus musculus with 6 samples.

Results

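The genes described here are those of the natriuretic peptide system: the peptide genes Nppa, Nppb and Nppc, the receptor genes Npr1, Npr2 and Npr3, and Corin. They were found on the array by the RefSeq accession given for each probe, which gave 7 genes with 1 probe each among 39429 non-control probes. Of the 7, 6 were bright enough to be tested among 21800 genes, and Nppc was not. Of these 21800 entries, 15233 had a gene symbol. The rest were probe targets without a symbol, and each is counted as a gene in the shares and ranks below. Expression was measured on 6 Agilent single-colour arrays in mouse hearts at embryonic day 9.5, dissected together with the mesoderm and endoderm of the pharynx underneath. There were 3 pools of wild-type embryos and 3 pools of Arid3b-null embryos, each of 4 embryos. Arid3b encodes a DNA-binding protein of the AT-rich interaction domain family. How the null allele was made, the strain and the sex of the embryos are not given in the sources used here.

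Natriuretic peptides are hormones that the heart muscle makes and secretes. Nppa encodes the precursor of atrial natriuretic peptide and Nppb that of brain natriuretic peptide, and in the embryonic heart both mark the working muscle of the forming chambers. Nppc encodes the precursor of C-type natriuretic peptide, which acts mainly near where it is made. Corin is a membrane protease of heart muscle that cuts the Nppa precursor to its active form. Npr1 and Npr2 are receptors that make cyclic GMP inside the cell, the first mainly for the Nppa and Nppb peptides and the second for the Nppc peptide. Npr3 binds the peptides and removes them, and in the early heart it is known as a gene of the endocardium, the inner lining.

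Nppa and Nppb lie next to each other on chromosome 4, and their upstream sequences are shown because these were the members that rose together. Each run covers the 250 bases before the annotated transcript start, 5′ to 3′ on the + strand, from RefSeq on build GRCm38.p6 (chr4:148000472-148000721 for Nppa and chr4:147985650-147985899 for Nppb). Capitals mark matches on either strand to GGTGTGA (T-box factors), AAGTG (NKX2-5), GATAA (GATA factors) and TATAAA (the TATA element). No base was shared by matches to different motifs.
Nppa: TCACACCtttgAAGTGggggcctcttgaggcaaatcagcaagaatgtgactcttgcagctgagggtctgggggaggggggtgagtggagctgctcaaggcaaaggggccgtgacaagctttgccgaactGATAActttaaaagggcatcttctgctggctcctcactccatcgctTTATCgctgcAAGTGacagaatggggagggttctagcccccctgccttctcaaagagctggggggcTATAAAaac
Nppb: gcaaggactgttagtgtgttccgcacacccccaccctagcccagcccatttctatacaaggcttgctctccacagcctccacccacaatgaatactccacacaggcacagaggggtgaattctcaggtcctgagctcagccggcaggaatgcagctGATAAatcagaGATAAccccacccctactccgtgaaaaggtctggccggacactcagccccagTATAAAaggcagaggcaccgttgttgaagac

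The Nppa window held 1 T-box match and an NKX2-5 match close together at its far end, a second NKX2-5 match, 2 GATA matches and a TATA match. Nppb had 2 GATA matches and a TATA match. Counted from the annotated start, the TATA match lay at -9 to -4 in Nppa, closer than in Nppb (-31 to -26). The start used in these hearts was not tested, and distances in the window hold only for the annotated one. The T-box letters occur in 3.33% of 32851 such windows of RefSeq genes, the NKX2-5 letters in 40.7%, the GATA letters in 22.6% and the TATA letters in 12.4%. ATTAAA, the letters known for ARID3 proteins, was in 0 of the 7 members' windows and in 12.7% of all windows. Among the other 5 members, the only match to any of these motifs was a TATA match before Nppc. These matches are descriptions of letters in a short window and show no binding.

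**Figure D1:**
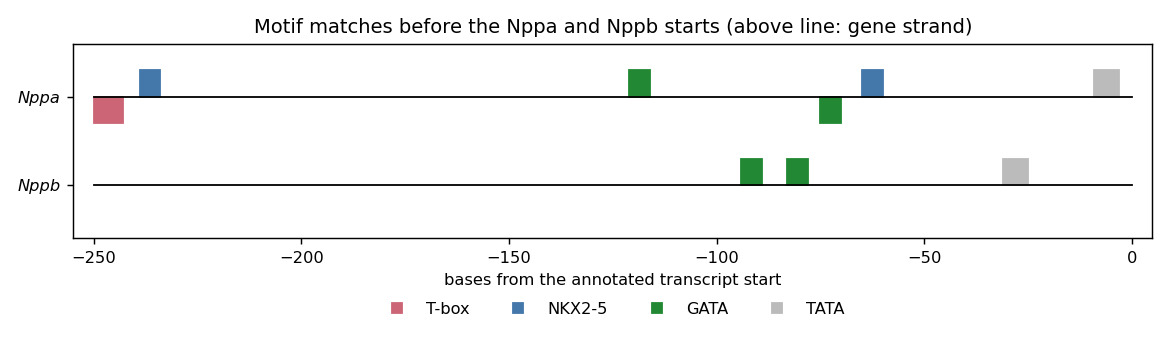
Matches to the searched motifs in the 250 bases before the annotated starts of Nppa and Nppb. The x axis gives bases from the start, each box is 1 match coloured by motif, and boxes above the line lie on the gene's strand. Nppa has matches to all 4 motifs drawn, and Nppb to 2 of them.

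Levels below are log2 signals relative to the 75th percentile of the same array, so that 1 unit is a doubling, and they compare pools for 1 gene but not genes with each other. Arid3b itself, on its brightest probe, read between 2.91 and 3.69 in the wild-type pools and between 0.45 and 1.08 in the null pools (limma adjusted p = 0.00197). The hearts carried their defining markers, since all 12 cardiomyocyte and all 12 endothelial and endocardial markers were well above background on every array. Of 21800 genes tested with limma, 2270 (10.4%) changed at an adjusted p under 0.05. These were 1441 genes with higher levels in the null pools (6.61% of the genes tested) and 829 with lower levels (3.8%). That split depends on the scaling: relative to each array's median it was 1102 higher and 1394 lower, and relative to the endothelial and endocardial markers 616 higher and 856 lower. Each slide held 1 wild-type and 1 null pool, always in the same places, so that place and genotype cannot be told apart. The labels give no litters, so p-values measure only the spread between these pools.

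Nppb and Nppa, the genes of both cardiac peptides, rose in the null hearts, while Corin and the receptor genes did not pass the test. Of the 6 members tested, 2 (33.3%) rose and 0 fell, where 6.61% of all genes tested rose and 3.8% fell. Both also passed among 26848 probes, of which 10.2% passed. Wild-type and null values were fully apart for Nppa, Nppb and Corin, which is 3 of 6 members, as they were for 32.9% of all genes tested. The median change of the 6 was 0.24 log2 units, and 0.03 over all genes tested.

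Nppb read 2.01, 2.22 and 1.79 in wild-type pools 1, 2 and 3 and 3.68, 4.22 and 3.58 in null pools 1, 2 and 3. The lowest null pool thus lay well over 1 unit above the highest wild-type pool. The mean was 2.01 ± 0.21 in wild-type and 3.83 ± 0.35 in null hearts (SD, n = 3 pools each). Its change of 1.82 log2 units (SE 0.22, 95% interval from 1.31 to 2.34) is a rise of 3.54-fold with a limma adjusted p = 0.00429. Ordered by unadjusted p it stood at place 277 of the 21800 genes tested, and by size of rise at place 251.

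Nppa read 6.52, 6.42 and 6.59 in wild-type pools 1, 2 and 3 and 7.5, 8.04 and 7.78 in null pools 1, 2 and 3. The wild-type pools lay close together and the null pools were spread more widely above them, with no overlap. Its means were 6.51 ± 0.08 in wild type and 7.77 ± 0.27 in null hearts (SD, n = 3 pools each). This is a log2 change of 1.27 (SE 0.18, 95% interval from 0.84 to 1.69), or 2.41-fold, with a limma adjusted p = 0.0077. Treating the slide as a block gave 0.0437.

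**Figure D2:**
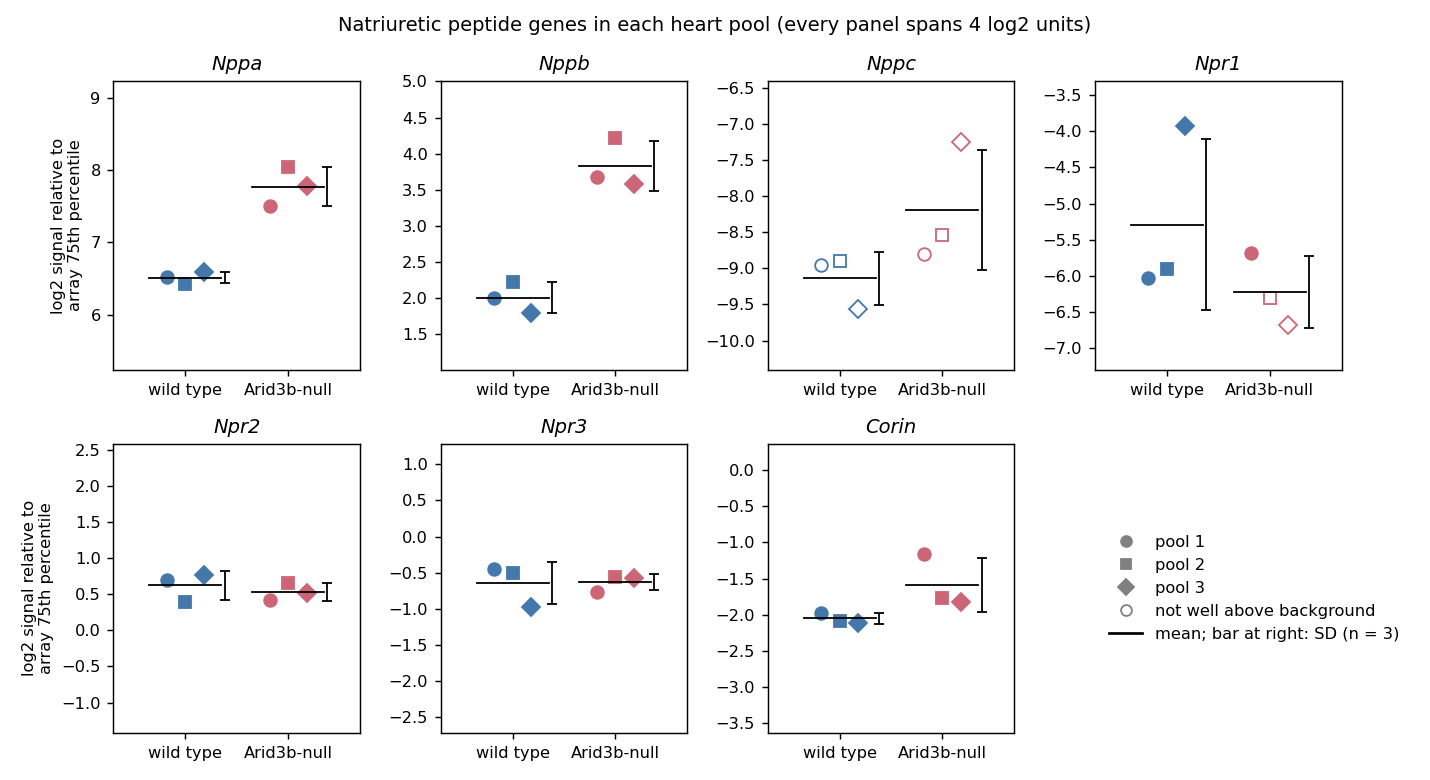
Level of the 7 genes in each pool (log2 signal minus the 75th percentile of its array), with wild-type pools in blue and null pools in red. Lines are group means, bars at the right are SDs (n = 3 pools), and open symbols mark probes not well above background. Nppa and Nppb separate the groups widely, from a mean of 6.51 to 7.77 and from 2.01 to 3.83.

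The Nppa probe was spotted 10 times on each array, which shows how far the signal varies between spots of the same array. Its raw signal ran from 61308 to 67968 on the array of wild-type pool 1 and from 156799 to 171157 on that of null pool 2. Raw ranges overlapped between wild-type pool 3 (102339 to 113868) and null pool 3 (109247 to 118929), which shared a slide. The 75th percentiles of these 2 arrays were 10.16 and 9.02 in log2 units. Most of the relative difference in Nppa between these 2 pools thus comes from the scaling. The coefficient of variation over the 10 spots lay between 2.7% and 3.81% on the 6 arrays. In log2 units the SD over spots was at most 0.056, smaller than the SD of 0.27 between null pools and of 0.08 between wild-type pools. No Nppa spot was saturated. The highest wild-type spot read 6.64 and the lowest null spot 7.38. Spots repeat the hybridisation of 1 RNA sample and are not replicates of a genotype. The spread between pools also holds differences between arrays, which spots of 1 array do not show. The other members had 1 spot each.

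**Figure D3:**
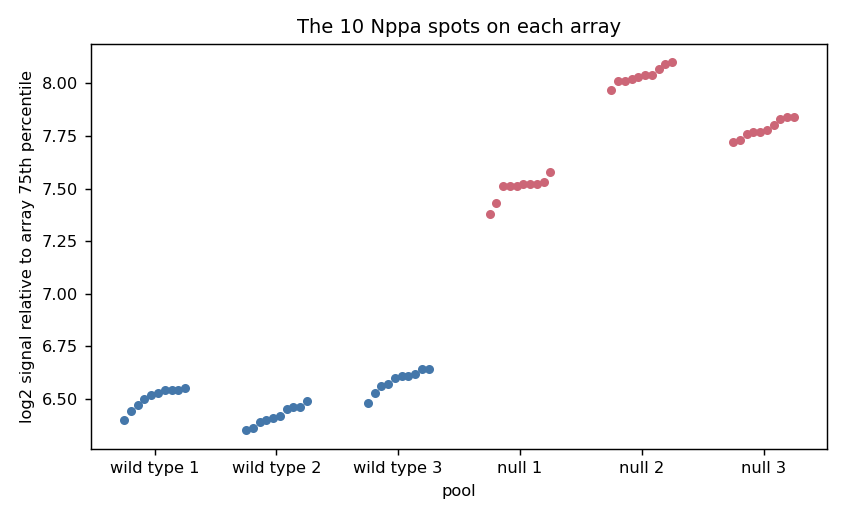
Each of the 10 Nppa spots on the 6 arrays (log2 signal minus the 75th percentile of the array). Spots of 1 array lie within about 0.2 units of each other, and the highest wild-type spot (6.64) is below the lowest null spot (7.38).

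Within slides 1, 2 and 3, the null array exceeded its wild-type neighbour by 1.67, 2.0 and 1.79 for Nppb and by 0.98, 1.62 and 1.2 for Nppa. On both genes the step was largest on slide 2. The scaling added to every step, since each null array had a lower log2 75th percentile than its neighbour. In slide order these were 9.47 against 9.5, 9.29 against 9.57 and 9.02 against 10.16. Raw Nppb signal on slide 3 was 6220 in the null and 3960 in the wild-type pool, so part of its step there also comes from the scaling. Taken within each array, Nppb minus Nppa was -4.51, -4.2 and -4.79 in wild-type pools 1, 2 and 3 and -3.82, -3.81 and -4.2 in null pools 1, 2 and 3. Its group means differed by 0.56, which an exact permutation test (two-sided, 3 against 3, smallest possible p 0.1) gave p = 0.2. With 3 pools a group this test could not reach 0.05, so it does not settle whether the 2 genes rose unequally. The step was larger for Nppb than for Nppa on each of the 3 slides.

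The calls of both peptide genes held without any single pool and under each scaling tried. Leaving out each of the 6 pools in turn moved the change of Nppb between 1.62 and 1.94 (limma adjusted p up to 0.0222) and that of Nppa between 1.14 and 1.4 (adjusted p up to 0.0406). When arrays were scaled to the mean of the 12 cardiomyocyte markers, Nppb changed by 1.87 (SE 0.24, adjusted p = 0.00255) and Nppa by 1.31 (SE 0.18, adjusted p = 0.0039). In pools of whole tissue, a different number of cells of a type and a different amount of RNA per cell cannot be told apart. Markers shared by all heart muscle do not show shifts among kinds of muscle cell, whose part was not tested. In the authors' deposited values, tested in the same way, Nppb changed by 1.88 (SE 0.23) and Nppa by 1.01 (SE 0.20).

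**Figure D4:**
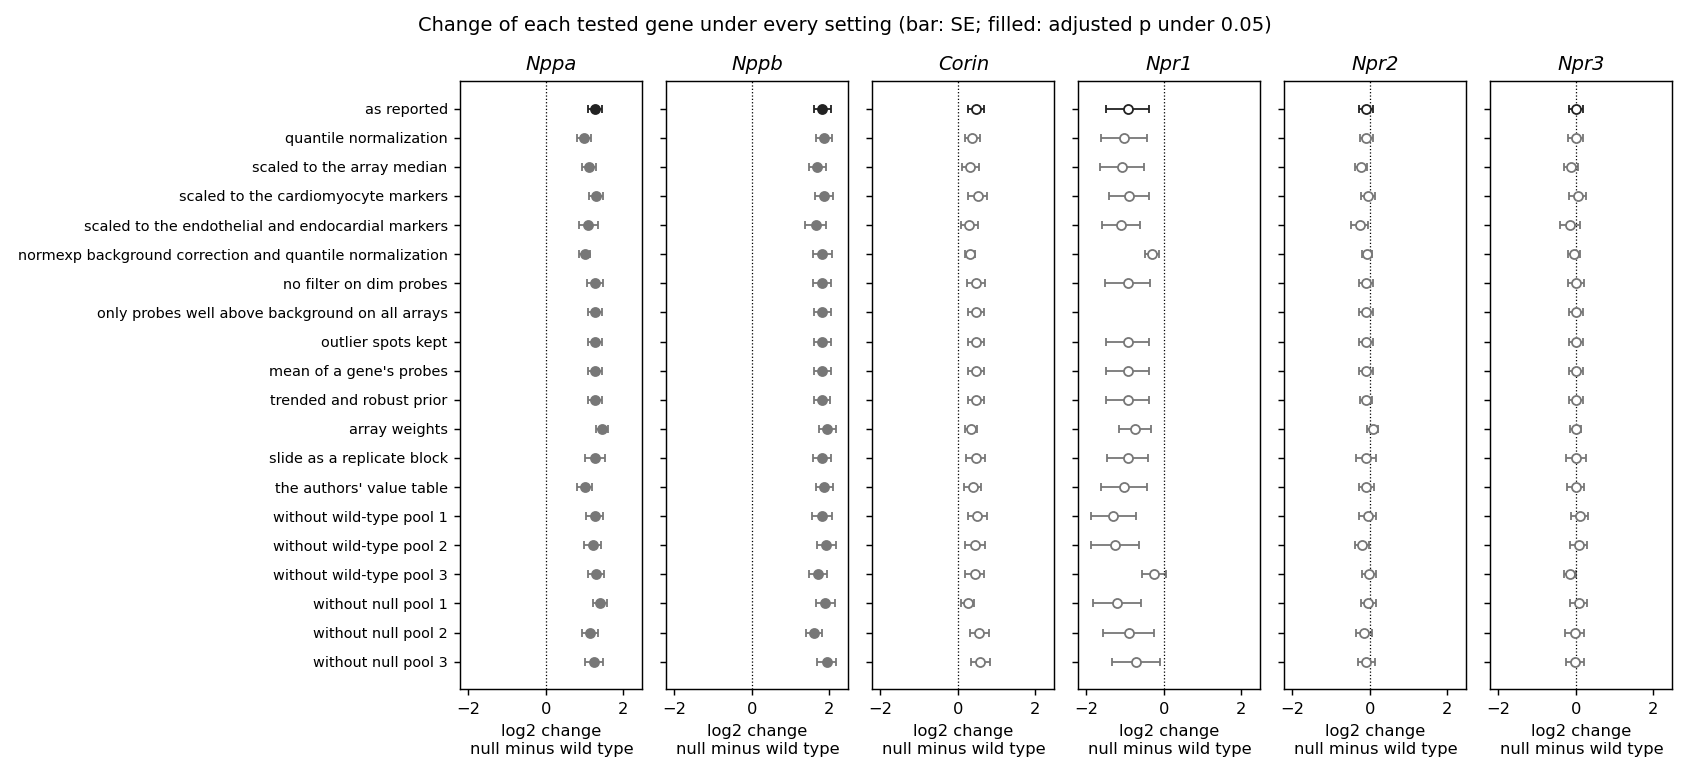
Log2 change (null minus wild type) of the 6 tested genes as reported and under 19 other settings, with bars for the SE. Filled points passed an adjusted p under 0.05. Nppa (0.99 to 1.46) and Nppb (1.62 to 1.95) are filled throughout, and the other 4 genes are open throughout.

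Nppc was not well above background on any of the 6 arrays. It read -8.96, -8.9 and -9.57 in the wild-type pools and -8.8, -8.54 and -7.25 in the null pools. Values at this level carry no order, and no change is given for it.

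Corin read -1.97, -2.09 and -2.11 in wild-type pools 1, 2 and 3 and -1.16, -1.77 and -1.82 in null pools 1, 2 and 3. Every null pool was above every wild-type pool, and null pool 1 stood highest. The change of 0.47 (SE 0.21, 95% interval from -0.03 to 0.96) did not pass (limma adjusted p = 0.207). Without null pool 1 it was 0.26 (adjusted p = 0.367).

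Npr1, the receptor for the Nppa and Nppb peptides, was dim. It read -6.03, -5.91 and -3.93 in wild-type pools 1, 2 and 3 and -5.69, -6.3 and -6.68 in null pools 1, 2 and 3, and was well above background on every wild-type array but only on that of null pool 1 among the null arrays. Wild-type pool 3 stood apart from the other 5 pools, whose groups overlapped. Its change of -0.93 (SE 0.56, 95% interval from -2.24 to 0.38) had a limma adjusted p = 0.336, and without wild-type pool 3 the change was -0.25 (SE 0.31, adjusted p = 0.679).

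Npr2, the receptor for the Nppc peptide, read 0.69, 0.39 and 0.77 in wild-type pools 1, 2 and 3 and 0.42, 0.66 and 0.52 in null pools 1, 2 and 3. The groups overlapped throughout, and the change was -0.09 (95% interval from -0.48 to 0.31, limma adjusted p = 0.796). For Npr3, the clearance receptor, wild-type pools 1, 2 and 3 read -0.45, -0.5 and -0.98 and null pools 1, 2 and 3 read -0.76, -0.56 and -0.57. Its change was 0.01 (95% interval from -0.43 to 0.46, adjusted p = 0.973). Relative to the endothelial and endocardial markers it was -0.15 (SE 0.26, adjusted p = 0.791). For both receptors the interval leaves out a doubling or a halving, while the test does not show equal levels.

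Of the genes that process or break down the peptides, 0 of the 7 tested passed the test, and their median change was 0.11. With 10.4% of all genes tested passing, a list of 7 would hold about 1 called gene at that share. Furin, the protease that cuts the Nppb precursor, changed by 0.31 (SE 0.19), and Pcsk6, which activates Corin, by 0.11 (SE 0.24). Mme, the peptide-degrading enzyme neprilysin, changed by 0.36 (SE 0.15). Dpp4, a membrane peptidase, and Ide, insulin-degrading enzyme, both changed by -0.57 (SE 0.17 and 0.18, adjusted p = 0.0728 and 0.0957). Osteocrin (Ostn), which binds the clearance receptor, was not bright enough to be tested, nor were Mep1a and Mep1b.

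Downstream of the receptors, 2 of 17 tested genes for cyclic GMP kinases, their targets and phosphodiesterases rose and 0 fell (11.8%, against 10.4% of all genes tested), with a list median of -0.16. Pde2a, a phosphodiesterase that cyclic GMP stimulates, read 1.29, 1.49 and 1.42 in the wild-type pools and 2.28, 2.4 and 2.51 in the null pools. It rose 2-fold (log2 1.0, SE 0.15, limma adjusted p = 0.00923), and its call ended in the fit blocked by slide (0.0711) and relative to the endothelial and endocardial markers (0.0501). Prkg1, a cyclic GMP-dependent protein kinase, rose by 0.82 (SE 0.19, adjusted p = 0.0396), but lost its call when any 1 of the 6 pools was left out (adjusted p from 0.0689 to 0.114) and in the fit blocked by slide (0.149). Its call also ended with scaling to the array median (0.064), the cardiomyocyte markers (0.0542) or the endothelial and endocardial markers (0.163). The same held with no filter on dim probes (0.0994). Pde5a, a phosphodiesterase that breaks down cyclic GMP, changed by -0.46 (SE 0.18) and Pde9a, another such enzyme, by -0.83 (SE 0.24, adjusted p = 0.0758), and neither passed. Of 7 tested genes for other sources of cyclic GMP, 0 passed, with a median of 0.03, among them the endothelial nitric oxide synthase Nos3 (-0.61, SE 0.18, adjusted p = 0.0701) and the soluble cyclase subunit Gucy1a1 (0.46, SE 0.19, adjusted p = 0.16).

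Of 15 tested transcription factors known to activate natriuretic peptide genes, 0 passed the test, with a median change of -0.16. In a list this short, a share of 10.4% as over all genes tested would be 1 or 2 genes. Nkx2-5 changed by 0.07 (SE 0.16), Gata4 by -0.01 (SE 0.31) and Tbx5 by -0.49 (SE 0.19, adjusted p = 0.152). The smallest p in this list was that of Nfatc4 (0.58, SE 0.18, adjusted p = 0.089). Among 10 known or proposed repressors of these genes, 1 rose and 0 fell (10%, near the 10.4% of all genes tested), with a median of 0.17. Jarid2, a nuclear protein that represses Nppa in mouse heart muscle, rose by 0.80 (SE 0.19, limma adjusted p = 0.0403), a call that ended when any 1 of the 6 pools was left out (adjusted p from 0.0608 to 0.112) and in the fit blocked by slide (0.175). The Jarid2 call also ended with scaling to the array median (0.0847), the cardiomyocyte markers (0.0512) or the endothelial and endocardial markers (0.107). With no filter on dim probes it ended as well (0.102). The T-box repressor Tbx2, which keeps Nppa off in the canal between the chambers, changed by -0.65 (SE 0.20, adjusted p = 0.0846), and Tbx3 by -0.12 (SE 0.19).

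Of 17 tested genes of the chamber muscle and its inner ridges, 1 rose and 1 fell (11.8%, near the 10.4% of all genes tested), with a median of 0.04. Bmp10, a growth factor of the inner muscle ridges, rose by 0.96 (SE 0.17, adjusted p = 0.0154), and its call ended when wild-type pool 2, wild-type pool 3 or null pool 2 was left out (up to 0.0694), in the fit blocked by slide (0.0862), relative to the endothelial and endocardial markers (0.0867) and with normexp background correction, where the change was 0.35 (0.0705). Irx4, a ventricular transcription factor, fell by 0.82 (SE 0.16, adjusted p = 0.0227), a call that ended when any 1 of the 6 pools was left out (0.0501 to 0.0865), in the fit blocked by slide (0.131) and with no filter on dim probes (0.0682). Gja5, a gap junction gene of chamber muscle, changed by -0.30 (SE 0.25), Ankrd1, a stretch-responsive muscle gene, by 0.73 (SE 0.22, adjusted p = 0.0789) and the myosin genes Myh6 and Myh7 by -0.08 (SE 0.21) and 0.32 (SE 0.18).

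**Figure D5:**
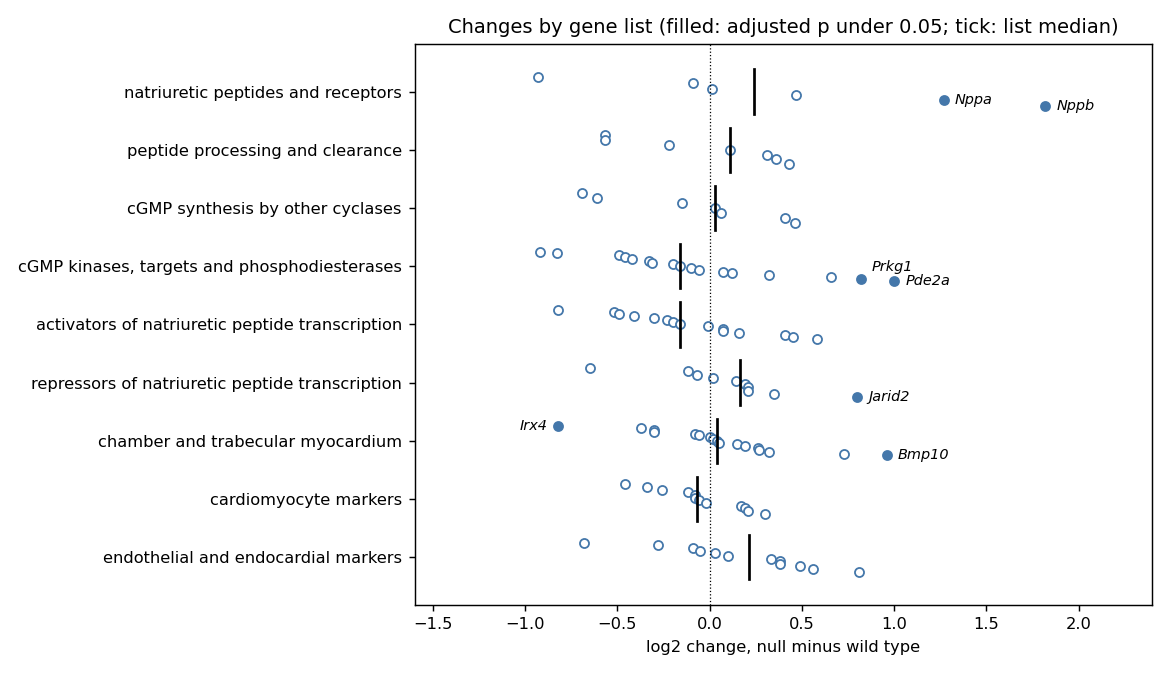
Log2 change (null minus wild type) of each tested gene in 9 lists, with filled points for an adjusted p under 0.05 and black ticks for list medians. Nppa (1.27) and Nppb (1.82) lie to the right of every gene of the other 8 lists drawn, whose medians run from -0.16 to 0.22. The epicardial, platelet and trophoblast lists are not drawn and held larger rises, among them Krt19 (3.03), Pf4 (3.65) and Ascl2 (3.62).

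Marker levels describe the RNA of several cell types in the same pools, and do not separate numbers of cells from RNA per cell. The mean level of the 12 cardiomyocyte markers was between 5.31 and 5.46 in the wild-type pools and between 5.22 and 5.39 in the null pools, and 0 of the 12 passed the test (median -0.07), with the smallest p for the contractile genes Tnnc1 (-0.46, SE 0.17) and Myl3 (0.30, SE 0.16). For the 12 endothelial and endocardial markers the means ran from 0.74 to 1.04 and from 0.98 to 1.2, and 0 passed (median 0.22), with the smallest p for Flt1 (0.81, SE 0.22, adjusted p = 0.0575) and Egfl7 (0.49, SE 0.23). Changes in this list ran both ways, from Tek (-0.68) to Flt1 (0.81), and its median difference within slide 3 was -0.14. Mean levels of the 8 epicardial markers were -1.14 to -0.79 in wild type and -0.46 to 0.01 in null hearts, a median change of 0.49 and 2 rises (Krt19, by 3.03, and Wt1, by 1.42, whose call ended without wild-type pool 2 or 3, adjusted p up to 0.058). The other 6 did not pass and ran both ways, from Tcf21 (-0.41) and Aldh1a2 (-0.40) to Upk3b (0.81), and the list's median difference within slide 3 was -0.15. The 8 megakaryocyte and platelet markers all rose, with mean levels of -2.38 to -1.82 against 0.54 to 1.17 and a median change of 2.7, among them Gp1ba (2.65), Gp6 (3.06) and Pf4 (3.65). Those of 8 pharyngeal endoderm markers were -1.75 to -1.34 and -1.96 to -1.81, with a median change of -0.24 and 1 fall (Nkx2-1, by -0.79, whose call ended when any 1 of the 6 pools was left out, adjusted p up to 0.146, and in the fit blocked by slide, 0.149). The Nkx2-1 call also ended relative to the cardiomyocyte markers (0.0831) or the endothelial and endocardial markers (0.0678), and with no filter on dim probes (0.114). Of the 8 pharyngeal mesoderm markers 0 passed (mean levels of 0.07 to 0.4 against 0.28 to 0.65, median change 0.45), with the smallest p for Fgf8 (0.90, SE 0.25, adjusted p = 0.0668) and Foxc2 (0.59, SE 0.18, adjusted p = 0.0765). Tcf21 (-0.41) and Isl1 (-0.36) went the other way, and this list's median difference within slide 2 was -0.08. Of 6 tested trophoblast markers 1 rose (Ascl2, by 3.62), and the median change was 1.83. The other 5 did not pass and ran both ways, from Hand1 (-0.82) and Prl3b1 (-0.41) to Prl3d1 (3.36, SE 1.75). The mean level of the 6 was -2.86 to -2.61 in wild type and -2.5, -1.53 and 0.55 in null pools 1, 2 and 3. Nppb and Nppa changed by 1.94 and 1.26 without null pool 3, where the mean level of the trophoblast markers stood highest. The single markers differed: in null pools 1, 2 and 3, Prl3d1 read -3.2, -0.97 and 4.78. Ascl2 read -0.07, 0.12 and -0.02 in the same pools, and Hand1 0.74, 0.85 and 0.15. Leaving out null pool 3 thus does not leave out the rise of Ascl2. The part of these marker differences in the peptide genes' rise was not tested.

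Genes on either side of the Nppb and Nppa pair, named for their place in the RefSeq annotation and not by their values, did not pass the test. On the Nppb side lie 2510039O18Rik (0.1, SE 0.15), Plod1 (0.27, SE 0.34) and Mfn2 (-0.23, SE 0.17). Beyond Nppa lie Clcn6 (0.67, SE 0.23) and Agtrap (0.38, SE 0.25), and the smallest adjusted p among these 5 genes was 0.121, that of Clcn6. A difference between these genes and the peptide genes was not tested.

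Genes whose pattern was most like a member's were ranked by Pearson's r over the 6 arrays, among 13996 genes with a symbol that were well above background on every array. The 6 arrays form 2 groups, so for Nppa and Nppb a high r needs little more than a like separation of the groups. Nearest to Nppa were Mkrn1 (r 0.999), Grap2 (0.997), Syngr4 (0.996) and Dennd2d (0.996), and r between Nppa and Nppb was 0.97. Nearest to Nppb were Ap1s2 (0.999), Gm13889 (0.999), Cth (0.998) and Flna (0.998). A high r does not mean a change of like size. The 4 genes nearest to Nppa passed the test, with changes of 0.61, 1.58, 0.71 and 1.2 in the order named. Those nearest to Nppb changed by 0.79, 0.63, 0.51 and 0.37, and Cth and Flna did not pass (limma adjusted p = 0.0724 and 0.15). Among the nearest to Npr3 were Smad9 (0.984), Rab30 (0.982) and Il15ra (0.98).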

How the data were processed

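The intensity values were deposited by the authors as scanner output of 1-colour arrays, made with Agilent Feature Extraction 10.7.3.1 per the file headers, which subtracts background with spatial detrending. The deposited flags (another kind of column, per the file headers) mark spots well above background, saturated or outlying. The authors' deposited log2 table covers 24158 of the probes, with no statement of its making in the sources used here. Its columns correlated at 0.9994 or more with the log2 scanner signal across probes, so it holds log2 levels not centred probe by probe. Column medians were 6.76 for wild-type pool 2 and 6.77 for the other 5 pools. The 75th percentiles of the scanner signal ran from 9.02 (null pool 3) to 10.16 (wild-type pool 3). The arrays thus stand at a common level in the authors' table.

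Here log2 processed signal minus each array's 75th percentile was used, without outlier spots, with spots of a probe averaged. Probes well above background on at least 3 of 6 arrays were kept (26848 of 39429), and the brightest stood for a gene. Symbols came from the RefSeq gene table of GRCm38.p6 (26424 of the 39429 probes had one), a later build than mm9, which stands in the file headers, and positions of probes or gene bodies are left out. Promoter windows, with their GRCm38.p6 positions, were found for 7 of 7 members, and the order of neighbouring genes is that of the same table. The test was that of limma 3.58.1 (R 4.3.3; read with the data.table package, version 1.17.8), two-sided, with Benjamini-Hochberg adjustment over all genes tested. The number of arrays limits the precision. The procedure was tested on simulated data.

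The members and the 13 other gene lists were chosen with earlier results of these data known. Named genes were all members, in each list the called genes of smallest p, at most 4 (or 2 uncalled where none passed) and the 4 genes most like Nppa, Nppb and Npr3. Other list genes given as values were picked for their known role after their values were seen. Some genes that the rule names are not reported here. Tcf21 and Hand1 each stand in a pair of lists. Alternatives were the slide as a block, quantile normalization, 3 other scalings, normexp on the median spot signal with an offset of 50, filters, outlier spots, probe averaging, priors, array weights, the authors' table and leaving out each pool.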

Additional observations from a re-analysis of the deposited data

How the results depend on the processing

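The calls of Nppa and Nppb, and the lack of a call for Corin, Npr1, Npr2 and Npr3, held under all 19 alternatives, except that Npr1 had no value where probes had to be well above background on all arrays. With the slide as a replicate block the limma adjusted p was 0.0437 for Nppa and 0.0103 for Nppb, and 2 members passed. The pool numbers are also the slides. Deviations of same-numbered pools from their group means correlated at -0.4, -0.09 and -0.41 over genes. For wild-type and null pools of different numbers the values ran from -0.18 to 0.49. With 3 pools a group, these values do not settle whether pools of the same slide varied together. The same 2 passed when all probes were tested in place of genes. The count of changed genes over the whole array, 2270, was 722 with the slide as a replicate block, 1034 with no filter on dim probes, 1472 relative to the endothelial and endocardial markers, 4843 with array weights and 832 (without wild-type pool 2) to 1743 (without null pool 1) when a pool was left out. The 13 lists held 17 called genes, with 11 under the slide block, 32 with array weights and 10 to 17 when a pool was left out. The cause was not tested. Scaling to the array median gave 1102 higher and 1394 lower genes in place of 1441 and 829, and moved the median change of all genes from 0.03 to -0.11, and scaling to the endothelial and endocardial markers gave 616 and 856 and moved it to -0.14. Other uncalled list genes passed under some alternatives, among them Flt1 with an adjusted p = 0.0122 with array weights. With 3 pools per group an exact permutation test cannot go below 0.1.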
